A study of Mus musculus with 18 samples.

Results

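Semaphorins, plexins and neuropilins are a ligand and receptor system that guides growing axons. The genes described here are those with a symbol of Sema3 to Sema7 plus a letter, Plxna to Plxnd plus a number, Nrp1 or Nrp2, found in all 5 deposited tables. They number 31 of 27179 genes, and comprise 20 semaphorins, 9 plexins and 2 neuropilins. RNA was measured in 18 samples of motor neurons (MNs) sorted from mouse spinal cord. At postnatal day 8 (p8) there were 3 brachial, 3 thoracic and 3 lumbar samples, all from Chat-IRES-Cre::Ai9 mice, in which Cre made from the Chat locus switches on tdTomato. At e12.5 there were 3 brachial samples of Hoxc8 MNΔ early mice, which are Olig2-Cre::Hoxc8 fl/fl and lose Hoxc8 from MN progenitors onward, and 6 brachial control samples that the labels give as wildtype. The paper names the controls of its mutant experiment as Hoxc8 fl/fl. Which of the 6 samples these are is not stated in the sources used here. The embryonic cells were sorted by the Mnx1-GFP reporter, and several spinal cords were pooled for each e12.5 and p8 replicate. Mnx1 and Chat also mark small sets of other spinal neurons, and the methods give the brachial segments of the stage and mutant experiments as different ranges.

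Semaphorins of class 3 are secreted and bind neuropilins, which hand the signal to plexins of the A group. Those of classes 4 to 6 span the membrane and bind plexins directly, and Sema7a is tethered to the membrane by a lipid anchor. In the developing cord these cues keep motor axons bundled, steer them at the base of the limb and hold motor neuron cell bodies inside the cord. Several semaphorins and plexins are also made by oligodendrocytes, vessels and immune cells.

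Each table gives 1 value per gene that could be used here, the authors' base mean, a read count scaled for library depth and averaged over all libraries of the table. No value belongs to 1 sample or 1 group, so the values below carry no SD and no test, and a difference between regions or genotypes cannot be read from them. The base means of the 3 regional tables were identical for every gene and are called the p8 pool. The table of stages averages e12.5 and p8 brachial samples and is called the mixed-stage pool. The table of control and Hoxc8 MNΔ early samples, given per RefSeq transcript, is called the e12.5 pool. The pools were normalized separately. A gene was therefore also expressed as its share of the summed base means of its table, and ratios below are ratios of shares. The p8 and mixed-stage pools share p8 brachial samples. A gene read in p8 brachial samples therefore counts in both pools, which limits how far its ratio can rise. The ratio of a gene read only at e12.5 has no such limit on its fall. The p8 pool also holds thoracic and lumbar samples, so the ratio is not one of stage alone.

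Relative depth here means the factor by which the counts of a library were scaled, which need not follow its total of reads. It was read from the lowest base means. A base mean under 2 times the lowest one above 0 can only come from 1 read in 1 library. A single read in the deepest library was worth 0.0405 in the p8 pool, 0.0651 in the mixed-stage pool and 0.142 in the e12.5 pool. There were 6, 8 and 6 such levels in these pools, differing by up to 1.61, 1.77 and 1.29 times. The labels list 9 p8 samples. Which of the 6 control samples entered the mixed-stage and the e12.5 pool is not stated in the sources used here, so the number of libraries in the e12.5 pool and the part of Hoxc8 MNΔ early libraries among them are not known. Any library outside these levels had a scaling factor less than 0.5 times the largest one, or shared a level with another library. Its total of reads is not known.

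Markers of other cells and of neurons differed between the pools. The 10 oligodendrocyte genes took 44.1% of the p8 pool and 23.8% of the mixed-stage pool, and Mbp alone took 35.2% of the p8 pool and 19.8% of the mixed-stage pool. The 7 microglia genes took 0.0637% of the p8 pool and 0.0323% of the mixed-stage pool, and the 4 Schwann cell genes 0.0247% and 0.00202%. The oligodendrocyte precursor genes took 0.292% of the p8 pool and 0.144% of the mixed-stage pool, the astrocyte genes 0.442% and 0.248%, and the endothelial genes 0.00949% and 0.00493%. Most of the astrocyte sum was S100b, with 0.415% of the p8 pool and 0.218% of the mixed-stage pool. Of the 7 astrocyte genes, 5 had a larger share in the p8 pool and 2, Slc1a2 and Aldh1l1, a smaller one. The 6 general neuron genes took 0.0102% of the p8 pool and 0.246% of the mixed-stage pool, and all 6 had a smaller share in the p8 pool, with a median log2 ratio of -4.66. All 7 MN markers had a smaller share in the p8 pool. Chat had a base mean of 14.1 in the p8 pool and 147 in the mixed-stage pool, Isl1 had 2.67 and 313, and Mnx1 had 0.696 and 2338. The gap was not even across the markers. Slc5a7 had 165 in the p8 pool and 210 in the mixed-stage pool, a log2 ratio of -0.038. Prph had 443 and 1739, a log2 ratio of -1.66. Isl2 stood at 0.0406 in the p8 pool, the worth of a single read. The 6 interneuron genes took 0.000398% of the p8 pool and 0.0443% of the mixed-stage pool, with Pax2 at 0 in the p8 pool. The part of these cells in the values of the guidance genes was not tested. Fewer cells of a type and less RNA per cell cannot be told apart in such samples.

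Together the 31 genes took 0.108% of the summed base means of the p8 pool and 0.295% of the mixed-stage pool. The share lay with different groups in the pools. Semaphorins made up 71.4% of the members' summed base mean in the p8 pool and 40.2% in the mixed-stage pool. Plexins made up 26.0% in the p8 pool and 46.7% in the mixed-stage pool. These sums were not divided by exon length. All 31 genes had a base mean of at least 10 in the mixed-stage pool and 30 did in the p8 pool, where Sema3f was at 6.16.

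**Figure D1:**
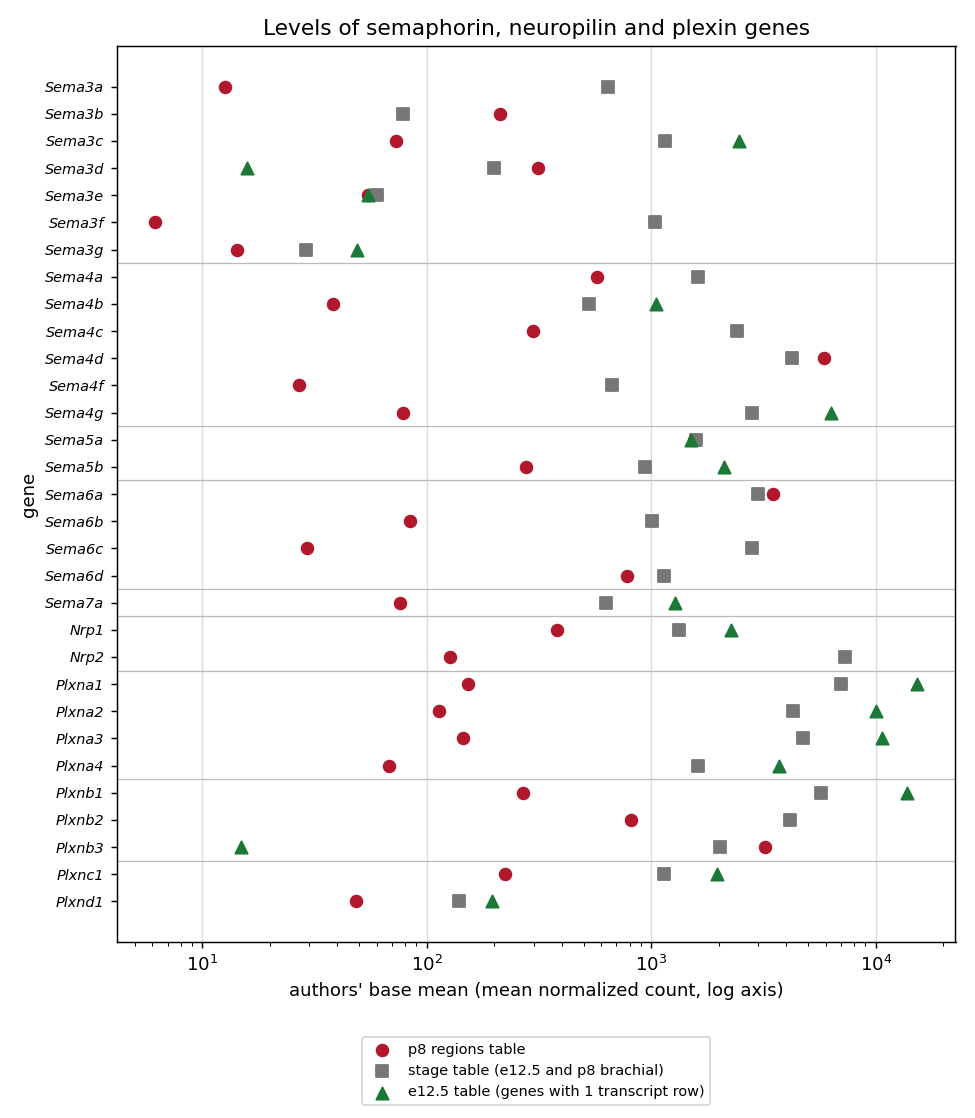
Base mean of each gene (horizontal log axis, mean normalized count) in the p8 pool (circles), the mixed-stage pool (squares) and, for the 18 genes with 1 transcript row, the e12.5 pool (triangles). Sema4d at 5884 is the highest circle and Plxna1 at 6972 lies near the right end of the squares, where Nrp2 at 7288 is the highest.

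Levels can be compared between genes only per length, so base means were divided by the length of the merged exons of each gene. On this scale the p8 pool was led by Sema4d with 766 per kb, Plxnb3 with 495 per kb, Sema6a with 395 per kb, Sema4a with 107 per kb and Plxnb2 with 105 per kb. The mixed-stage pool was led by Plxna1 with 770 per kb, Nrp2 with 615 per kb, Plxna3 with 604 per kb, Plxnb1 with 596 per kb and Sema4d with 550 per kb. The leading genes of the p8 pool were thus mostly membrane-bound ligands with B-group plexins, and those of the mixed-stage pool mostly receptors. The lowest values per kb were 0.913 for Sema3a in the p8 pool and 6.40 for Sema3g in the mixed-stage pool.

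**Figure D2:**
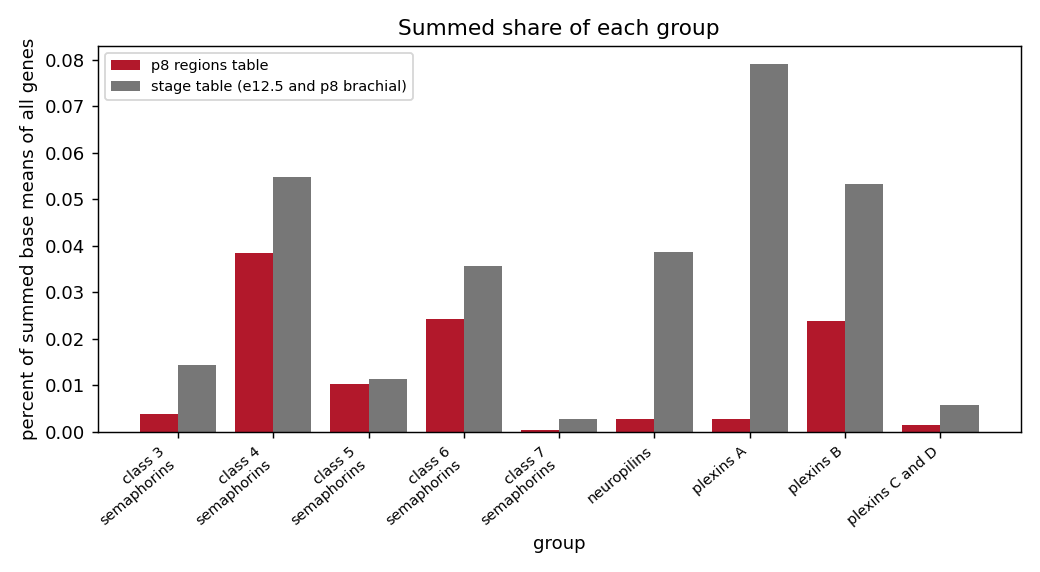
Share of the summed base means of all genes (percent, vertical axis from 0) held by each group in the p8 pool (left bars) and the mixed-stage pool (right bars). A-group plexins took 0.00267% of the p8 pool and 0.0790% of the mixed-stage pool, and class 4 semaphorins took 0.0384% and 0.0548%.

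Of the 31 genes, 7 had a larger share in the p8 pool than in the mixed-stage pool and 24 had a smaller one. Among all 13951 genes whose base mean reached 10 in both pools, 30.5% had a larger share in the p8 pool, and the median log2 ratio of p8 over mixed stage was -0.46, with quartiles of -1.37 and 0.17. The median of the guidance genes was -2.71 over all 31 genes. Over the 30 guidance genes that also reached 10 in both pools it was -2.37, and 23.3% of these had a larger share in the p8 pool. Of all 31, 20 lay below the lower quartile of all genes and 7 above the upper one. The 7 genes with a larger share in the p8 pool were Sema3b, Plxnb3, Sema3d, Sema4d, Sema6a, Sema5a and Sema3e. Sema5a and Sema3e had slightly lower base means in the p8 pool and counted among the 7 only as shares.

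**Figure D3:**
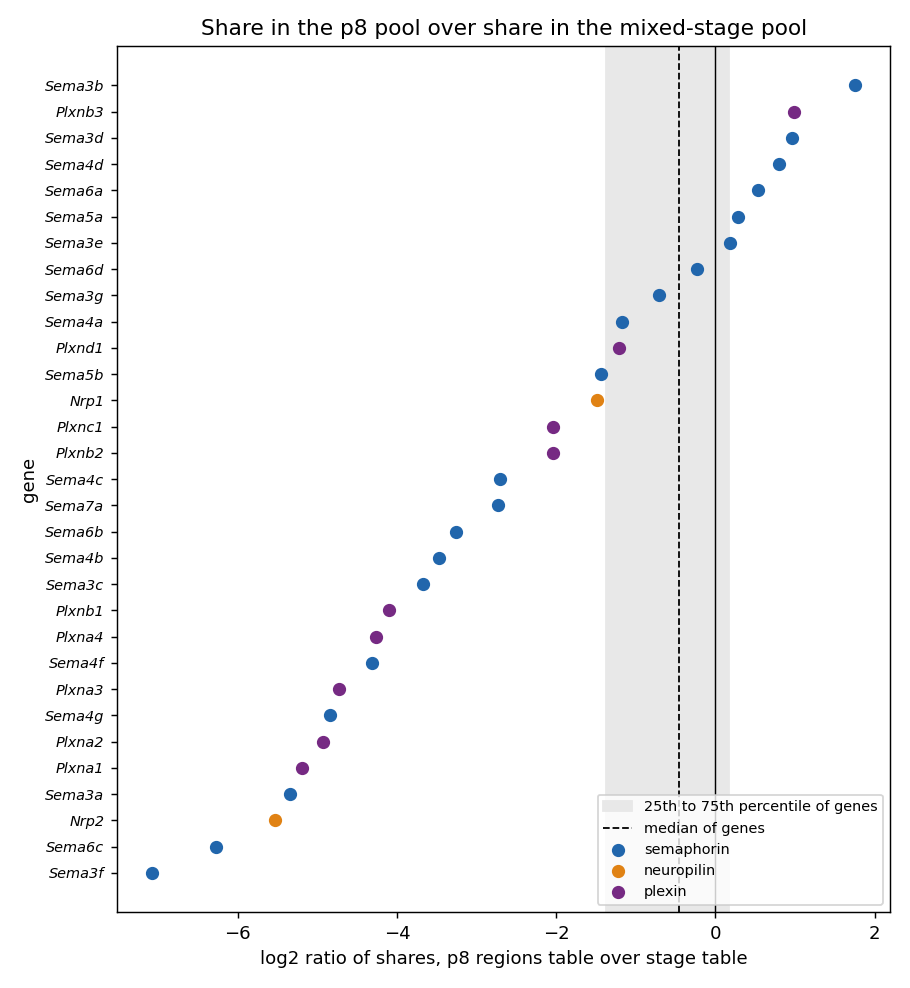
Log2 ratio of shares of p8 over mixed stage (horizontal axis) for each gene, coloured by family. The dashed line is the median of all genes at -0.46 and the band runs between their quartiles, and the genes extend from -7.08 for Sema3f to 1.76 for Sema3b.

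The neuropilins bind class 3 semaphorins and the vascular growth factor VEGF, and have short tails that signal little by themselves. Nrp1 (GRCm38, chromosome 8 from 128358591 to 128505476), the receptor of Sema3a, had a base mean of 381 in the p8 pool and 1332 in the mixed-stage pool. Nrp2 (chromosome 1 from 62703317 to 62818692), the receptor of Sema3f, had 127 in the p8 pool and 7288 in the mixed-stage pool. Both genes had a smaller share in the p8 pool, but by 2.81 times for Nrp1 and 46.3 times for Nrp2. By base mean, not divided by exon length, Nrp2 lay at percentile 98.8 of all genes with reads in the mixed-stage pool. In the p8 pool it lay at percentile 56.2.

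A-group plexins are the signalling partners of the neuropilins. All 4 had a smaller share in the p8 pool, by 19.1 to 36.6 times. Plxna1 (chromosome 6 from 89316313 to 89362613) had a base mean of 153 in the p8 pool and 6972 in the mixed-stage pool, Plxna2 had 113 and 4296, Plxna3 had 145 and 4760, and Plxna4, a receptor for Sema3a and for class 6 semaphorins, had 67.7 and 1612. The log2 ratios ran from -5.19 for Plxna1 to -4.26 for Plxna4. Beside them, the median was -4.66 for the general neuron genes, -3.96 for the MN markers and -7.28 for the interneuron genes with reads in the p8 pool. Single MN markers ran from -0.038 for Slc5a7 to -11.4 for Mnx1. The part of neurons in the values of these plexins was not tested. The summed share of the A-group plexins was 0.00267% of the p8 pool and 0.0790% of the mixed-stage pool.

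The B-group plexins, receptors of class 4 semaphorins that act on the small GTPase RhoA, did not share 1 pattern. Plxnb1 (chromosome 9 from 109093849 to 109119915) resembled the A group with a base mean of 267 in the p8 pool and 5720 in the mixed-stage pool. Plxnb2, which is also made by dividing progenitors, had 812 in the p8 pool and 4152 in the mixed-stage pool. Plxnb3 (chromosome X from 73756556 to 73772510) stood on the other side with 3213 in the p8 pool and 2018 in the mixed-stage pool. It was at percentile 97.7 of the p8 pool by base mean, not divided by exon length. It lies 556 kb from Plxna3, whose log2 ratio was -4.73 against 0.99 for Plxnb3. Plxnb3 is known as a plexin of the oligodendrocyte lineage, and the oligodendrocyte genes had a median log2 ratio of 1.18. Such a ratio was not particular to them. The median was 1.12 for oligodendrocyte precursor genes, 1.34 for microglia genes, 0.93 for astrocyte genes and 0.87 for endothelial genes. Which cells gave the Plxnb3 value was not tested.

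Plxnc1, the receptor of Sema7a, had a base mean of 224 in the p8 pool and 1141 in the mixed-stage pool. Plxnd1, which binds Sema3e without a neuropilin and acts in vessels as well as in neurons, had 48.2 in the p8 pool and 139 in the mixed-stage pool. Per kb of exons, Plxnd1 was the lowest plexin of the mixed-stage pool, and Plxna4 was the lowest of the p8 pool at 4.80, beside 6.61 for Plxnd1.

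Secreted class 3 semaphorins spanned the whole range of the 31 ratios. Sema3a, which repels motor axons, had a base mean of 12.7 in the p8 pool and 639 in the mixed-stage pool. Sema3c had 72.6 in the p8 pool and 1148 in the mixed-stage pool, and Sema3f had 6.16 and 1034, the largest gap of all 31 genes at 135 times in share. These 3 genes contrast with Sema3b, Sema3d and Sema3e. Sema3b had 212 in the p8 pool and 78.0 in the mixed-stage pool, and Sema3d had 312 in the p8 pool and 200 in the mixed-stage pool. Sema3e differed least of the class, with 54.7 in the p8 pool and 59.9 in the mixed-stage pool. Sema3g, a cue of vessels, was low in each pool at 14.3 in the p8 pool and 29.1 in the mixed-stage pool. Beside Sema3b and Sema3d, the 4 Schwann cell genes had a median log2 ratio of 4.04 and the endothelial genes one of 0.87. Of the 4, Pmp2 had a base mean of only 0.142 in the mixed-stage pool, and 3 reached 10 in both pools. The oligodendrocyte genes had a median of 1.18 and the microglia genes one of 1.34. Which cells gave the Sema3b and Sema3d values was not tested.

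Genes of class 3 lie close together in the genome without sharing a pattern. Sema3d, Sema3a, Sema3e and Sema3c occupy 5.35 Mb of chromosome 5 from 12383161 to 17730268 of GRCm38. Their log2 ratios, in this order, were 0.96, -5.34, 0.19 and -3.67. Sema3b (chromosome 9 from 107597674 to 107609241) and Sema3f (from 107681499 to 107710475) are 72.3 kb apart, and gave the highest and the lowest log2 ratio of the 31 genes, 1.76 for Sema3b and -7.08 for Sema3f.

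In class 4, Sema4d (chromosome 13 from 51685529 to 51793678), a ligand of Plxnb1 that lymphocytes and oligodendrocytes make, had the highest base mean of the 31 genes in the p8 pool, 5884, and 4225 in the mixed-stage pool. The other 5 genes of the class had smaller shares in the p8 pool. Sema4a, which also acts in immune cells, had 576 in the p8 pool and 1612 in the mixed-stage pool, and Sema4c had 296 in the p8 pool and 2406 in the mixed-stage pool. Sema4g had 78.5 in the p8 pool and 2801 in the mixed-stage pool. Sema4b and Sema4f were lower in either pool, at 38.4 and 26.9 in the p8 pool and at 529 and 665 in the mixed-stage pool. Of the summed base mean of the class, not divided by exon length, Sema4d held 85.3% in the p8 pool and 34.5% in the mixed-stage pool.

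Class 5 semaphorins carry thrombospondin repeats and can attract or repel axons. Sema5a (chromosome 15 from 32244813 to 32696341), which the study examined as a gene dependent on Hoxc8, had a base mean of 1553 in the p8 pool and 1588 in the mixed-stage pool. Its share was 1.22 times as large in the p8 pool. Sema5b had 277 in the p8 pool and 934 in the mixed-stage pool, a log2 ratio of -1.44 against 0.28 for Sema5a.

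Class 6 semaphorins act both as ligands of A-group plexins and as receptors. Sema6a, which helps to hold motor neuron cell bodies within the cord and is also found in oligodendrocytes, had 3470 in the p8 pool and 2985 in the mixed-stage pool. Sema6d had 783 in the p8 pool and 1141 in the mixed-stage pool. Sema6b and Sema6c had 84.4 and 29.1 in the p8 pool, against 1008 and 2814 in the mixed-stage pool. The class thus ran from a log2 ratio of -6.28 for Sema6c to 0.53 for Sema6a. Sema7a, which binds Plxnc1 and integrins, had 75.8 in the p8 pool and 627 in the mixed-stage pool.

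Ligands and their receptors did not always lie on the same side. Sema3f and Nrp2 both had far smaller shares in the p8 pool, with log2 ratios of -7.08 and -5.53. For Sema3a and Nrp1 the log2 ratios were -5.34 and -1.49. Sema7a with Plxnc1 gave -2.73 and -2.03, Sema3e with Plxnd1 gave 0.19 and -1.21, and Sema4d with Plxnb1 gave 0.79 and -4.10. Sema5a, for which Plxnb3 is a known receptor, gave 0.28 against 0.99 for that plexin. The side of Sema3e and Sema5a holds only as shares, since their base means were slightly lower in the p8 pool.

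In the e12.5 pool the genes could not all be read. Of the 31 genes, 18 had 1 transcript row and 13 had several, 47 rows in all, of which 27 were at 0. None of the 13 had a transcript above the 60.1 of Sema4c. The highest transcript was at 53.5 for Sema6a, 52.0 for Sema6d, 48.0 for Sema4a, 39.8 for Sema3f, 36.5 for Sema6c and 33.7 for Sema3a. It was at 3.49 for Plxnb2, 0.151 for Sema4d and 0.142 for Sema3b, and Nrp2, with 7288 in the mixed-stage pool, had 6 rows that were all at 0. The same held across the table. Of 4166 genes with several rows and a base mean of at least 100 in the mixed-stage pool, 85.3% had a highest transcript below 0.1 times that base mean, against 7.11% of 7282 genes with 1 row. A low value of a gene with several rows was therefore not taken as a low level, and isoforms of the 13 genes are not compared.

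**Figure D4:**
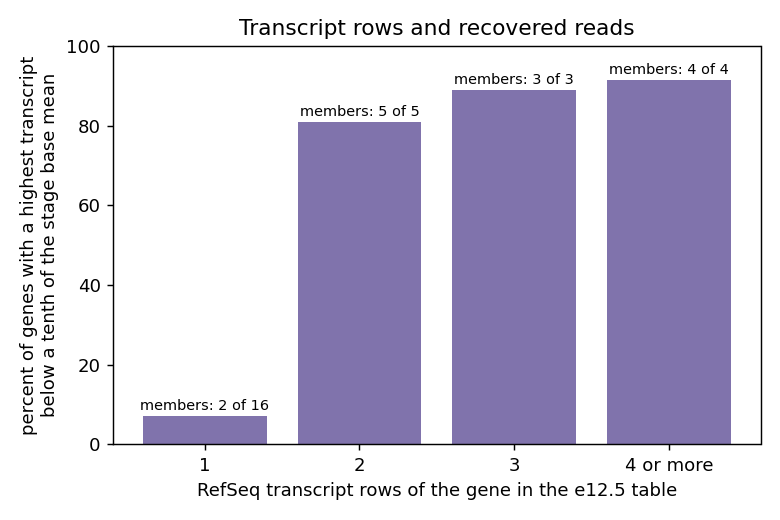
Percent of genes (vertical axis) whose highest transcript in the e12.5 pool was below 0.1 times their base mean in the mixed-stage pool, by the number of RefSeq transcript rows of the gene (horizontal axis), among genes at 100 or more in the mixed-stage pool. The bar for 1 row is at 7.11% and that for 2 rows is at 81.0%, and the text above each bar counts the guidance genes.

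For the 18 genes with 1 row, the p8 and e12.5 pools share no sample, and shares were taken among all genes with 1 row. Of the 18, 4 had a larger share in the p8 pool and 14 a smaller one. The median log2 ratio of p8 over e12.5 was -2.44, beside -0.09 for the 8026 such genes that reached 10 in both pools, of which 47.9% had a larger share in the p8 pool. Plxna1 had a base mean of 153 in the p8 pool and 15326 in the e12.5 pool, a share 44.8 times smaller, and Plxnb1 had 267 in the p8 pool and 13751 in the e12.5 pool. In the e12.5 pool Plxna2 had 9979, Plxna3 had 10685 and Plxna4 had 3700. Together with Sema4g, these A-group plexins had shares 24.4 to 39.4 times smaller in the p8 pool. Sema4g had 6293 in the e12.5 pool, Sema3c had 2448 and Sema5b had 2101. Per kb, the readable semaphorins of the e12.5 pool were led by Sema4g at 727, Sema7a at 387, Sema3c at 343 and Sema5b at 297.

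Among genes with 1 row, those with a larger share in the p8 pool than in the e12.5 pool were Plxnb3, Sema3d, Sema5a and Sema3e. Plxnb3 had 3213 in the p8 pool and 14.9 in the e12.5 pool, a share 482 times larger, and Sema3d had 312 in the p8 pool and 15.8 in the e12.5 pool. The difference was smaller for Sema5a, with 1553 in the p8 pool and 1498 in the e12.5 pool, and for Sema3e, with 54.7 and 54.5. As shares among genes with 1 row these were 2.32 and 2.25 times larger in the p8 pool. As shares of the whole tables both turned, to 1.29 times smaller for Sema5a and 1.34 times smaller for Sema3e in the p8 pool, so no direction is given for them. The e12.5 pool also averages control and Hoxc8 MNΔ early libraries, and the values of the genotypes cannot be told apart in it. The sizes depend on the same choice, since with whole tables Plxna1 had a share 134 times smaller and Plxnb3 a share 161 times larger in the p8 pool. Of the oligodendrocyte genes with 1 row, Mog had 19645 in the p8 pool and 124 in the e12.5 pool. Such a gap was not particular to them. With 1 row each, the microglia gene Csf1r had 5824 and 47.6 and the astrocyte gene S100b had 74606 and 10.7. Another astrocyte gene, Aldh1l1, went the other way with 79.0 and 240. Which cells gave the Plxnb3 and Sema3d values was not tested. Nrp1 had 381 in the p8 pool and 2256 in the e12.5 pool, Plxnc1 had 224 and 1963, and Sema7a had 75.8 and 1277. Plxnd1 with 196 and Sema3g with 49.1 in the e12.5 pool differed least among the 14 genes with a smaller share in the p8 pool, by 1.82 and 1.53 times.

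**Figure D5:**
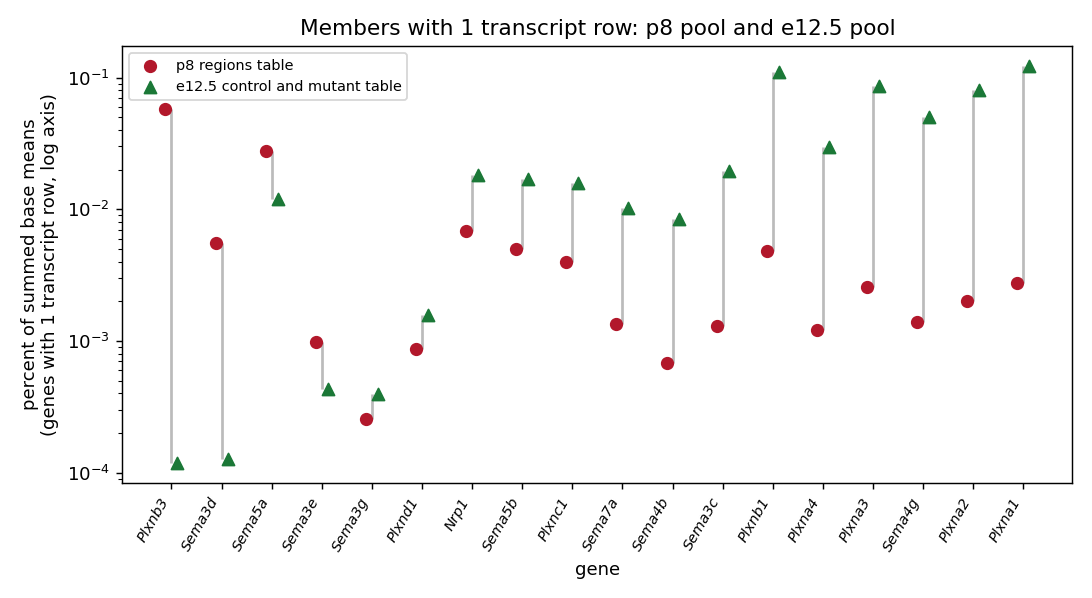
Share of the summed base means of genes with 1 transcript row (percent, vertical log axis) for 18 genes in the p8 pool (circles) and the e12.5 pool (triangles), ordered by their ratio. Plxnb3, Sema3d, Sema5a and Sema3e have the circle above the triangle, and the other 14 genes have it below, while in shares of the whole tables Sema5a and Sema3e have it below as well.

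Other genes of the pathway were taken from a fixed list. Of 9 further receptors and co-receptors, 2 had a larger share in the p8 pool than in the mixed-stage pool and 7 a smaller one, with a median log2 ratio of -2.57, beside 30.5% of all genes with a larger share and a median of -0.46. Of these 9 genes, 4 lay above the median of all genes. L1cam, a partner of Nrp1 in the response to Sema3a, had a base mean of 257 in the p8 pool and 8659 in the mixed-stage pool, and Robo1, which receives Slit signals, had 76.7 and 4618. Itgb1, an integrin receptor of Sema7a, had 4127 in the p8 pool and 3978 in the mixed-stage pool. Among 30 effectors, 9 had a larger share in the p8 pool and 21 a smaller one, with a median of -0.65. These 9 are 30.0% of the effectors, near the 30.5% of all genes.

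Members of the collapsin response mediator family bind tubulin downstream of Sema3a. Crmp1 had 445 in the p8 pool and 24580 in the mixed-stage pool, Dpysl3 had 558 and 13463, and Dpysl5 had 969 and 15508, while Dpysl2 had 3496 in the p8 pool and 5841 in the mixed-stage pool, a log2 ratio of -0.43 that is close to the median of all genes. The small GTPases did not share 1 side. Rac1 had 10701 in the p8 pool and 8536 in the mixed-stage pool, Rhoa had 6393 and 4788, while Rnd3, an antagonist of RhoA signalling, had 192 in the p8 pool and 2727 in the mixed-stage pool. Rnd2, a GTPase that binds plexins, had 4740 in the p8 pool and 3351 in the mixed-stage pool. Cfl1, which severs actin filaments, had 23425 in the p8 pool and 22322 in the mixed-stage pool, and Arhgef12, an activator of RhoA that binds B-group plexins, had 219 in the p8 pool and 3677 in the mixed-stage pool.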

How the data were processed

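RNA of sorted MNs was sequenced as single-end reads, and the authors mapped them to GRCm38 (HISET2 as printed in the methods, HISAT in the submitters' processing notes), kept reads with 1 placement, counted them with featureCounts and ran DESeq2 on Galaxy. Versions and the annotation release are not given in the sources used here. The base mean, a signal per gene, was deposited by the authors as the mean normalized count over all libraries of a table. The 5 other columns of each table hold the authors' own fold changes, standard errors, Wald statistics and p-values, and were not used. No table holds values per sample.

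Symbols and positions came from the RefSeq annotation of GRCm38.p6, which matched 93.0% of gene IDs and 99.2% of transcripts, and exon lengths from GENCODE M21. For the e12.5 table the transcript with the highest base mean stood for its gene. Shares were taken of the sum of a table. All guidance genes were accounted for, with values printed for neuropilins, plexins and, by the rule set for naming, leading semaphorins. Ratios were also computed without oligodendrocyte genes, with the median gene at 1, with other minimum base means and per kb. The restriction to genes with 1 transcript row, and the ratio of p8 to mixed-stage shares, were chosen after seeing the data. The genes and lists were chosen with earlier results of these data known. The rule for single-read levels and the calculation of shares were tested on simulated data. No simulated library fell outside the levels, so that case was not tested. Python 3.11.15, numpy 2.4.6, pandas 2.3.3 and matplotlib 3.10.9 were used. Protein features could not be computed here, and in situ hybridization, chromatin and behaviour data were not analysed here.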

Additional observations from a re-analysis of the deposited data

How the results depend on the processing

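The share of the 31 genes in the p8 pool was 0.108%, and became 0.193% without the 10 oligodendrocyte genes, 0.167% without Mbp and 0.0566% per kb of exon length. In the mixed-stage pool 0.295% became 0.152% per kb. In the e12.5 pool 0.545% became 0.271% per kb, and 0.582% among genes with 1 transcript row. The 0.545% and 0.271% include genes with several rows, whose e12.5 values cannot be read as levels. They are therefore not compared with the shares of the other pools. With a minimum base mean of 100 in place of 10, 18 in place of 30 genes passed in the p8 pool and 14 in place of 25 in the e12.5 pool, where 7 of the 25 have several transcript rows. The number of genes with a larger share in the p8 pool than in the e12.5 pool was 6 of those at 10 or more in both, and 12 with no minimum. Of the 6, only Plxnb3 and Sema3d had 1 transcript row, and the other 4 (Sema4a, Sema4c, Sema6a and Sema6d) had several, so that their e12.5 values cannot be read as levels. The number was 4 of the 18 genes with 1 row, and 9 without oligodendrocyte genes or with the median gene at 1. Among all genes with 1 row that reached 10 in both pools, 47.9% had a larger share in the p8 pool. For the other settings that percent was not computed, and with whole tables the median log2 ratio of all genes was -1.32. The counts of 6, 9 and 12 are therefore not read as a result about the guidance genes. The log2 ratio of whole-table shares was -0.37 for Sema5a, -0.42 for Sema3e and -0.75 for Sema6c. It became 0.47, 0.42 and 0.088 without oligodendrocyte genes, and 0.94, 0.90 and 0.57 with the median gene at 1. Among genes with 1 row it became 1.21 for Sema5a and 1.17 for Sema3e. Leaving out oligodendrocyte genes, or setting the median gene at 1, adds 1 fixed amount to every log2 ratio. The other 21 ratios therefore all moved by over 1.5 times under these 2 settings, and they kept their sign. Against the mixed-stage pool, 7 became 8 (with Sema6d added) without oligodendrocyte genes or with the median gene at 1, and 5 (without Sema5a and Sema3e) with base means as deposited. Beside the 7, the percent of all genes was 30.5%, and it was not computed for the 8 and the 5. No paired analysis was possible because the tables hold no values per sample, and for the same reason no replicate could be left out. Depth per sample is unknown, so no limit of detection can be given.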
